A study of Mus musculus with 10 samples.

Results

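The Arp2/3 complex is described here through the transcripts of its 9 subunit genes in mouse macrophages with and without the Wiskott-Aldrich syndrome protein (WASp). The members are the rows of the deposited table whose symbol is Actr2, Actr3, Arpc1a, Arpc1b, Arpc2, Arpc3, Arpc4, Arpc5 or Arpc5l, 9 of 57010 gene identifiers, and all 9 were abundant enough to be tested. The cells were bone marrow-derived macrophages (BMDM), marrow precursors of the femur cultured with macrophage colony-stimulating factor at 20 ng/mL during 7 days. They came from wild-type (WT) mice or from mice without WASp (WASp KO, WKO), and were either left unconfined or squeezed during 1 h to a height of 3 µm by a PDMS micropillar device. There were 2 unconfined WT libraries (replicates 1 and 3), 2 unconfined WKO libraries (replicates 1 and 3), 3 confined WT libraries (replicates 2, 3 and 6) and 3 confined WKO libraries (replicates 1, 2 and 5). The labels used here give no strain or age of the mice, do not say how the WKO allele was made, and do not say how unconfined cells were handled. They do not say whether replicates of a group came from separate mice, so the p-values below measure the spread between these libraries, which may be technical.

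The Arp2/3 complex binds the side of an actin filament and starts a new filament from it, which builds the branched networks that push membranes outward and drive phagocytosis. Actr2 and Actr3 encode the actin-related proteins Arp2 and Arp3, which mimic the end of a filament, and 5 further positions are filled by the ARPC subunits. The complex does little alone and is switched on by nucleation-promoting factors, of which WASp is the one particular to blood cells.

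The sequence just upstream of the start site is shown for 3 of the genes, because the 9 genes encode parts of 1 complex and 5 of them carry the same short motif there. Windows of 250 bases before the start were found by symbol for 8 of the 9 subunit genes among the RefSeq promoters of GRCm38.p6, and Arpc5l had no entry. The 3 windows that hold the motif CCGGAAG and no annotated exon are printed from 5′ to 3′ on the strand of the gene, with the motif in capitals. They lie at chr11:20112952-20113201 on the minus strand (Actr2), chr1:125435728-125435977 on the minus strand (Actr3) and chr5:122391628-122391877 on the plus strand (Arpc3).
Actr2: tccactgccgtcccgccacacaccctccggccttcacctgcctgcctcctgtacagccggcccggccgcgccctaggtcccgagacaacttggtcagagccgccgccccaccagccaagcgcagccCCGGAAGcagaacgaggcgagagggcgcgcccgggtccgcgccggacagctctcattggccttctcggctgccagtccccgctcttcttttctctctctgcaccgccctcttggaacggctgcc
Actr3: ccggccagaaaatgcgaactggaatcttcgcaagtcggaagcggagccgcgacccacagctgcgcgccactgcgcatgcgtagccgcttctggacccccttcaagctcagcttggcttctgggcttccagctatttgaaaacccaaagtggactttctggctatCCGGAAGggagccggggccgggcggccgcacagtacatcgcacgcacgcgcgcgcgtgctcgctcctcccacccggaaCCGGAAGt
Arpc3: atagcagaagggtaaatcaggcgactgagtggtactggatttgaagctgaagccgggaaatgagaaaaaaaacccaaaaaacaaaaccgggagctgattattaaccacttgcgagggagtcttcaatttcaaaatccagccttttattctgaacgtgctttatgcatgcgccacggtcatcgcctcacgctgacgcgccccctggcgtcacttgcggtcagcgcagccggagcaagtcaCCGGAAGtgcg
The motif CCGGAAG, which is of the kind bound by ETS-family factors, was present on either strand in 5 of the 8 windows (Actr2, Actr3, Arpc3, Arpc4 and Arpc1a). It was present in 6.91% of 32851 RefSeq promoter windows of the same length, and it was chosen after the members' sequences had been seen. Actr3 held 2 copies, of which 1 ended 2 bases before the start. The other motifs were searched in the same way. GGGCGG was present in 5 of the 8 windows against 32.7% of all, CCAAT in 2 against 33.8%, and TATAAA in 0 against 12.4%. The NRF1 consensus was present in 1 window (Arpc2) against 0.782% of all, and the SRF CArG box in 1 (Arpc4) against 1.47%. In the 8 windows no match overlapped a match of another motif. A match is a string of letters and shows no binding.

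The libraries held between 13295701 and 19329908 reads assigned to genes, and 3 reads corresponded to a normalized read count between 2.35 and 3.59. Was, which encodes WASp and is the targeted gene, was between 1308 and 1649 normalized read counts in the 5 WT libraries and between 96.9 and 154 in the 5 WKO libraries. Its log2 fold change was -3.61 averaged over both conditions (limma adjusted p = 1.00e-08), so that the target went the way of the labels. The 8 macrophage markers were all abundant, with a summed normalized read count of 196391 to 220690 in WT and 256290 to 320603 in WKO libraries. Much of this sum came from Lyz2, at 100507 to 200203 over the libraries, while the next highest marker, Csf1r, was at 21303 to 37839. Markers of other cells were present too. Those of stromal cells (11 genes) summed to 942 to 1877 in unconfined WT, 2543 to 2878 in unconfined WKO, 204 to 799 in confined WT and 901 to 10007 in confined WKO libraries, and 10 of the 11 were highest in WKO confined replicate 5. Those of neutrophils and progenitors (10 genes) summed to 2568 to 10900 in WT and 7000 to 30143 in WKO libraries. The stromal gene Lum and the T cell genes Cd3e and Cd3d were at 0 in the median library. The part of these other cells in the results below was not tested beyond 1 alternative fit with the stromal markers as a covariate. In bulk libraries fewer cells of a type and less RNA per cell cannot be told apart.

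The subunit transcripts differed widely in level. Levels of different genes were compared as RPKM, reads scaled to the library's total and to the length in kilobases of the longest annotated transcript. The medians over the 10 libraries were 476 RPKM for Arpc2, 407 for Actr3, 363 for Arpc3, 299 for Arpc5, 242 for Arpc1b, 193 for Actr2, 103 for Arpc4, 39.9 for Arpc1a and 23.4 for Arpc5l. From Arpc2 down to Actr2, the ranges of each pair of neighbours in this order overlapped. The range of Actr2 (159 to 230 RPKM) lay above that of Arpc4 (93.4 to 115), which lay above that of Arpc1a (32.5 to 48.1), which lay above that of Arpc5l (15.6 to 29.1). The order of the upper 7 depended on the transcript chosen. With the shortest full transcript the medians were 540 RPKM for Arpc1b, 522 for Arpc2, 461 for Arpc3, 409 for Actr3, 337 for Arpc4, 329 for Arpc5 and 193 for Actr2, and Arpc1a and Arpc5l stayed below them. Together the 9 genes took between 0.395% and 0.485% of the reads of a library.

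**Figure D1:**
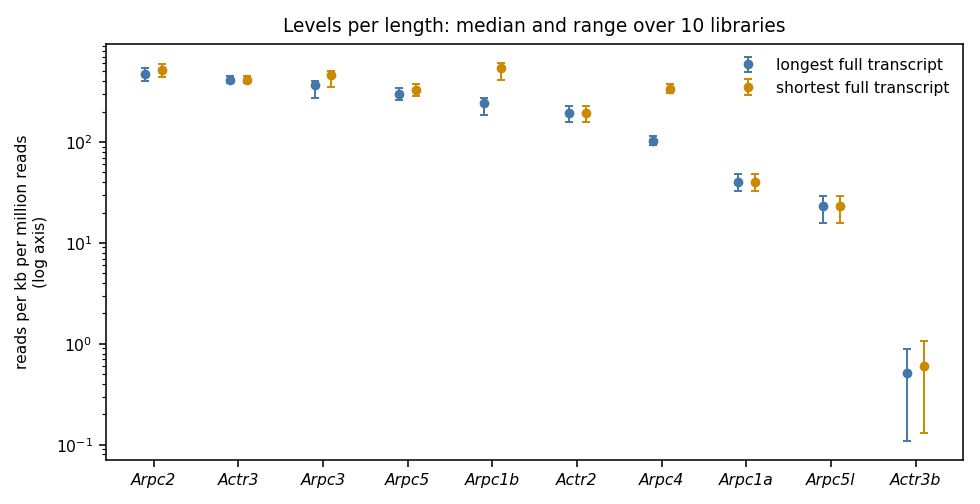
Level of the 9 Arp2/3 subunits and of Actr3b in RPKM, on a log axis. Points are the median and bars the lowest and highest of 10 libraries, for the longest (blue) and the shortest (orange) full transcript; Arpc1a and Arpc5l lie below the other 7 subunits, and Actr3b lies lowest with a median of 0.51 or 0.605.

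Those lowest subunits are the minor paralogues at the positions that different genes can fill. Arpc1a made up 13.9% of the reads per length of Arpc1a and Arpc1b in unconfined WT, 15.7% in unconfined WKO, 12.8% in confined WT and 14.9% in confined WKO libraries on average. In single libraries the Arpc1a share was 14.7% and 13.0% in unconfined WT and 14.8% and 16.6% in unconfined WKO libraries. It was 14.0%, 12.4% and 12.0% in confined WT and 15.4%, 14.3% and 15.0% in confined WKO libraries. The Arpc1a share was thus higher in each WKO library than in each WT library of the same condition, with the nearest libraries almost equal. For comparison, 44.9% of single genes did not overlap between the genotypes in unconfined cells, and 21.1% did not in confined cells. Arpc5l made up 6.95% of the reads per length of Arpc5 and Arpc5l in unconfined WT, 8.12% in unconfined WKO, 6.95% in confined WT and 6.97% in confined WKO libraries on average. Its share spanned 5.70% to 8.30% within the confined WKO libraries alone, and WT and WKO overlapped in both conditions. With the shortest transcripts the Arpc1a share fell to 6.74%, 7.70%, 6.19% and 7.28% in the same order of groups. Actr3b, the paralogue of Actr3 outside the rule, was at 3.59 to 25.8 normalized read counts and made up at most 0.231% of the reads per length of Actr3 and Actr3b with the longest transcripts. These shares are a description and carry no test.

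**Figure D2:**
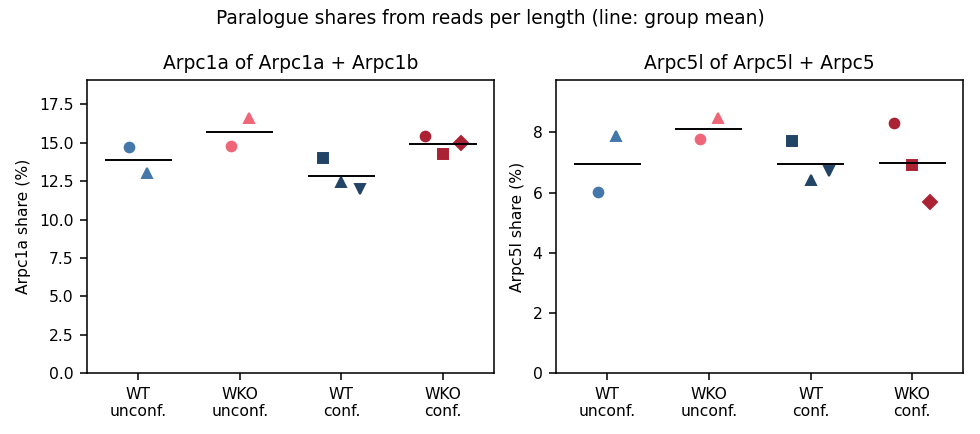
Share of Arpc1a in Arpc1a plus Arpc1b (left) and of Arpc5l in Arpc5l plus Arpc5 (right), in percent of reads per length of the longest transcript, by group. Points are libraries and lines group means; for Arpc1a the confined WKO libraries lie between 14.3% and 15.4%, above the confined WT libraries at 12.0% to 14.0%.

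None of the 9 subunit transcripts passed the test in any of the 7 comparisons, which cover WASp loss in each condition, confinement in each genotype, both averages and the interaction. The test was limma on log2(normalized read count + 1), fitted to 12455 genes with Benjamini-Hochberg adjustment over all of them and a threshold of 0.05. The same 9 genes gave 0 passing members in edgeR's quasi-likelihood test in all 7 comparisons, and in DESeq2 0 in 6 comparisons and 1 in the average effect of confinement. The 95% intervals of all 9 subunits lay within a 2-fold change in each comparison, against 60.7% to 80.0% of all genes tested. The subunits averaged 469 to 15736 normalized read counts, against 357 for the median gene tested. Their intervals were not compared with those of genes of like level. An interval within 2-fold does not show that a transcript did not change. Subunit by subunit, the values were as follows.

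Actr2 encodes Arp2, and its transcript (gene ENSMUSG00000020152, chromosome 11, 20062304 to 20112913, GRCm38) varied most between the groups. Its normalized read count was 10480 and 10102 in unconfined WT and 9256 and 8311 in unconfined WKO libraries. It was 13067, 12801 and 12867 in confined WT libraries, and 8751, 12277 and 10632 in confined WKO libraries (replicates 1, 2 and 5). The 3 confined WT libraries were thus the highest and lay close together, while the confined WKO libraries spread from the level of unconfined WKO cells to just under that of confined WT cells. The group means were 10291 ± 268 (SD, n = 2) in unconfined WT, 8784 ± 668 (SD, n = 2) in unconfined WKO, 12912 ± 138 (SD, n = 3) in confined WT and 10553 ± 1765 (SD, n = 3) in confined WKO libraries. On the log2 scale the highest and lowest group means of Actr2 were 0.56 apart, while those of the other 8 subunits were 0.16 to 0.31 apart. The median distance was 0.435 over all genes tested and 0.331 over those averaging 200 normalized read counts or more.

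Actr3 encodes Arp3, the other actin-related subunit. Its transcript was at 15354 and 16761 normalized read counts in unconfined WT and 14817 and 14056 in unconfined WKO libraries. It was 16512, 16011 and 16907 in confined WT and 14792, 16085 and 16065 in confined WKO libraries. Actr3 was lower in both unconfined WKO libraries than in both WT ones, and the genotypes overlapped after confinement. In unconfined cells the genotypes did not overlap for 44.9% of all genes. The pseudogene Actr3-ps matches 91.5% of the Actr3 transcript, with 98.8% identity in the longest stretch, and was at 27.0 to 48.2 normalized read counts, so that reads between them could be split.

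Arpc2 and Arpc4 form the scaffold that holds the complex on the existing filament. Arpc2 was at 10756 and 11482 normalized read counts in unconfined WT and 10121 and 9718 in unconfined WKO libraries, and it was at 10501, 10554 and 10624 in confined WT and 10841, 9732 and 9415 in confined WKO libraries. Arpc4 was at 3443 and 3825 in unconfined WT and 3030 and 3018 in unconfined WKO libraries, and it was at 3694, 3671 and 3899 in confined WT and 3369, 3534 and 3507 in confined WKO libraries. Arpc4 was lower in each WKO library than in each WT library of the same condition, whereas Arpc2 overlapped between the genotypes after confinement. Over all genes, the genotypes did not overlap for 44.9% in unconfined and 21.1% in confined cells, and the share for both conditions together was not computed. Arpc4 shares 283 exon bases on the same strand with Ttll3, which was at 76.1 to 295 normalized read counts.

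Arpc1a and Arpc1b encode alternative forms of the beta-propeller subunit. Arpc1a was at 979 and 976 normalized read counts in unconfined WT, 1034 and 1118 in unconfined WKO, 1001, 876 and 846 in confined WT, and 1133, 933 and 858 in confined WKO libraries. Arpc1b was at 10798 and 12418 in unconfined WT, 11362 and 10713 in unconfined WKO, 11674, 11732 and 11829 in confined WT, and 11816, 10675 and 9269 in confined WKO libraries. In both genes the confined WKO libraries spread most, with replicate 1 highest and replicate 5 lowest. Arpc1b overlaps exons of Pdap1 on the opposite strand over 931 bases, and because the use of strand in the counting is not given in the sources used here, its count is uncertain; Pdap1 was at 415 to 801 normalized read counts.

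Arpc3, Arpc5 and Arpc5l make up the remaining positions. Arpc3, which contacts Arp3, was at 3644 and 5250 normalized read counts in unconfined WT, 4537 and 4516 in unconfined WKO, 4685, 4540 and 5127 in confined WT, and 5089, 5292 and 5717 in confined WKO libraries. Arpc5 was at 9032 and 9503 in unconfined WT, 8366 and 8332 in unconfined WKO, 9025, 8709 and 8755 in confined WT, and 8390, 8302 and 7998 in confined WKO libraries. Arpc5l, the alternative to Arpc5, was at 404 and 569 in unconfined WT, 493 and 539 in unconfined WKO, 528, 418 and 441 in confined WT, and 531, 432 and 338 in confined WKO libraries. Of these, Arpc3 was higher in each confined than in each unconfined WKO library, groups that did not overlap for 28.3% of all genes. Arpc5 was lower in every WKO library of a condition than in every WT one, and the groups of Arpc5l overlapped throughout. The genotypes did not overlap for 44.9% of all genes in unconfined and 21.1% in confined cells.

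**Figure D3:**
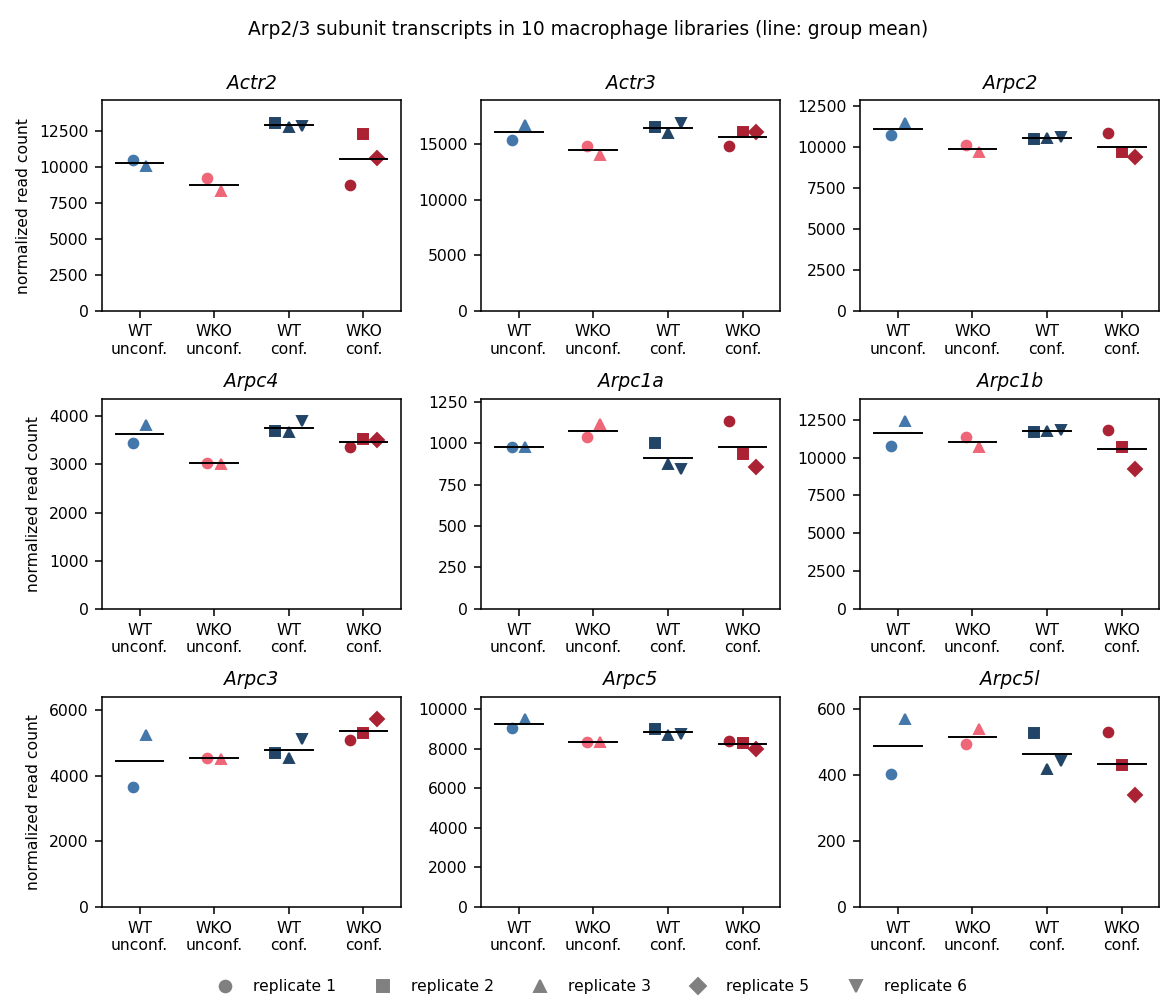
Normalized read count of each of the 9 subunits by group, with axes that start at 0. Points are libraries, their shape gives the replicate number and lines are group means; the Actr2 points reach from 8311 to 13067, and the Arpc5 points stay between 7998 and 9503.

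Several subunits had a small spread within groups when set against genes of all levels. The standard deviation within groups on the log2 scale was 0.034 for Arpc5, 0.056 for Arpc4, 0.063 for Actr3 and 0.069 for Arpc2. It was below that of Arpc5 in 0.056% of the genes tested and below that of Arpc2 in 1.98%. The standard deviation of Arpc1b was 0.12, that of Arpc1a 0.14, that of Actr2 0.15, that of Arpc3 0.17 and that of Arpc5l 0.26. The median was 0.231 over all genes tested and 0.176 over those averaging 200 normalized read counts or more. Arpc5l, the subunit with the fewest reads, was the only one above both medians. Arpc5, Arpc4, Actr3 and Arpc2 averaged 3499 to 15736 normalized read counts, whereas the median gene of these 2 sets averaged 357 and 775. Their spread was not compared with that of genes of like level.

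The loss of WASp was measured in each condition and averaged over both. In unconfined cells 6 of the 9 subunits had a negative and 3 a positive log2 fold change, with a median of -0.15 against 0.002 over all genes, and in confined cells 7 were negative and 2 positive, with a median of -0.10 against 0.004. Without WT unconfined replicate 3 the first median was -0.09, and without WKO confined replicate 5 the second was -0.06. No subunit passed in unconfined cells, where 0.145% of all genes did, or in confined cells, where 2.59% did. Without adjustment 1 subunit was under 0.05 in each of these comparisons, against 9.6% and 16.8% of all genes. In unconfined cells this was Arpc4 (log2 fold change -0.26, SE 0.106, limma adjusted p = 0.453). In confined cells it was Actr2 (log2 fold change -0.30, SE 0.118, 95% interval -0.56 to -0.05, limma adjusted p = 0.215).

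The WT and WKO libraries did not overlap for 6 subunits in unconfined cells, where this held for 44.9% of all genes, and for 3 in confined cells, where it held for 21.1%. In unconfined cells Arpc1a was higher in WKO, and Actr2, Actr3, Arpc2, Arpc4 and Arpc5 were lower. The 3 in confined cells were Actr2, Arpc4 and Arpc5, and all were lower in WKO. Averaged over both conditions, Actr2 had a log2 fold change of -0.27 (SE 0.093, 95% interval -0.47 to -0.06, limma adjusted p = 0.126), and Arpc4 one of -0.19 (SE 0.069, limma adjusted p = 0.143). Neither passed, where 5.57% of all genes did, and these were the 2 subunits under an unadjusted p of 0.05 against 20.2% of all genes. The other averages were -0.13 for Arpc5, -0.12 for Arpc2, -0.11 for Actr3, -0.11 for Arpc1b, -0.002 for Arpc5l, 0.11 for Arpc3 and 0.12 for Arpc1a. With the stromal markers as a covariate the average for Actr2 was -0.13 (limma adjusted p = 0.863). Its value in confined cells was -0.11 with that covariate (limma adjusted p = 0.996). It was -0.12 when libraries far from their group got less weight (array weights, limma adjusted p = 0.345). Without WKO confined replicate 1 it was -0.18 (limma adjusted p = 0.268), and without WKO confined replicate 2 it was -0.42 (limma adjusted p = 0.088). The direction for Arpc3 turned to -0.04 with the stromal covariate, and that of Arpc5l turned positive under 5 of the other settings and without any one of 4 libraries.

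Confinement for 1 h was compared in each genotype in the same way. Actr2 had the largest positive value, a log2 fold change of 0.33 in WT (SE 0.132, 95% interval 0.04 to 0.62, limma adjusted p = 0.334), which is a level 25.5% higher. In WKO it was 0.25 (SE 0.132, 95% interval -0.04 to 0.54, limma adjusted p = 0.412). Actr2 was higher in all 3 confined than in both unconfined WT libraries, while the confined WKO libraries overlapped the unconfined ones through replicate 1. No subunit passed in WT or in WKO, where 1.16% and 1.72% of all genes did. Without adjustment 1 subunit was under 0.05 in WT and 0 in WKO, against 12.2% and 14.1% of all genes.

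Confined and unconfined libraries did not overlap for 3 subunits in WT (Actr2 higher, Arpc2 and Arpc5 lower), against 35.9% of all genes, and for 2 in WKO (Arpc3 and Arpc4 higher), against 28.3%. In WKO the log2 fold change was 0.24 for Arpc3 (limma adjusted p = 0.466) and 0.20 for Arpc4 (limma adjusted p = 0.384). Averaged over both genotypes, Actr2 had a log2 fold change of 0.29 (SE 0.093, 95% interval 0.09 to 0.49, limma adjusted p = 0.0939). It did not pass, where 6.21% of all genes did, and was the 1 subunit under an unadjusted p of 0.05, against 21.6% of all genes. This call depended on the analysis. Without WKO confined replicate 1 the average for Actr2 was 0.35 (limma adjusted p = 0.00633) and the value in WKO was 0.38 (limma adjusted p = 0.0417), while without WKO confined replicate 2 the value in WKO was 0.14 (limma adjusted p = 0.680). With array weights, which give libraries far from their group less weight, the average was 0.38 (limma adjusted p = 0.0027) and the value in WKO 0.44 (limma adjusted p = 0.00849), and DESeq2 gave an average of 0.29 (adjusted p = 0.0448). The average passed under no other alternative. It was 0.16 with the replicate number as a block (limma adjusted p = 0.680) and 0.24 with the stromal covariate (limma adjusted p = 0.194). With upper-quartile scaling it was 0.20 (limma adjusted p = 0.193). Over all alternatives the value of the average for Actr2 lay between 0.16 and 0.38 and was positive in each.

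The remaining averages for confinement were small and had both signs. They were 0.19 for Arpc3, 0.12 for Arpc4, 0.08 for Actr3, -0.02 for Arpc1b, -0.03 for Arpc2, -0.05 for Arpc5, -0.13 for Arpc1a and -0.17 for Arpc5l, with limma adjusted p-values of at least 0.310. Single libraries moved several of them by over 1.5 times. The average of Arpc3 was 0.05 without WT unconfined replicate 1 and 0.32 without replicate 3, and that of Arpc5l was -0.29 and -0.04 without the same libraries. The median of the 9 was -0.02, the same as over all genes tested. Upper-quartile scaling moved the median of all genes to -0.10 and turned Actr3 to -0.01, and with it Actr2 was at 0.20.

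The difference between the confinement effects in WKO and WT was tested as an interaction. It was -0.07 for Actr2 (SE 0.187, 95% interval -0.48 to 0.33) and ranged from -0.21 for Arpc5l to 0.15 for Arpc4, all with a limma adjusted p of 0.999. None of the 12455 genes passed (0.0%) in limma, edgeR or DESeq2, and 2.07% were under an unadjusted p of 0.05, against 0 of the 9 subunits. The intervals of single subunits reached as far as -0.86 and 0.55.

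**Figure D4:**
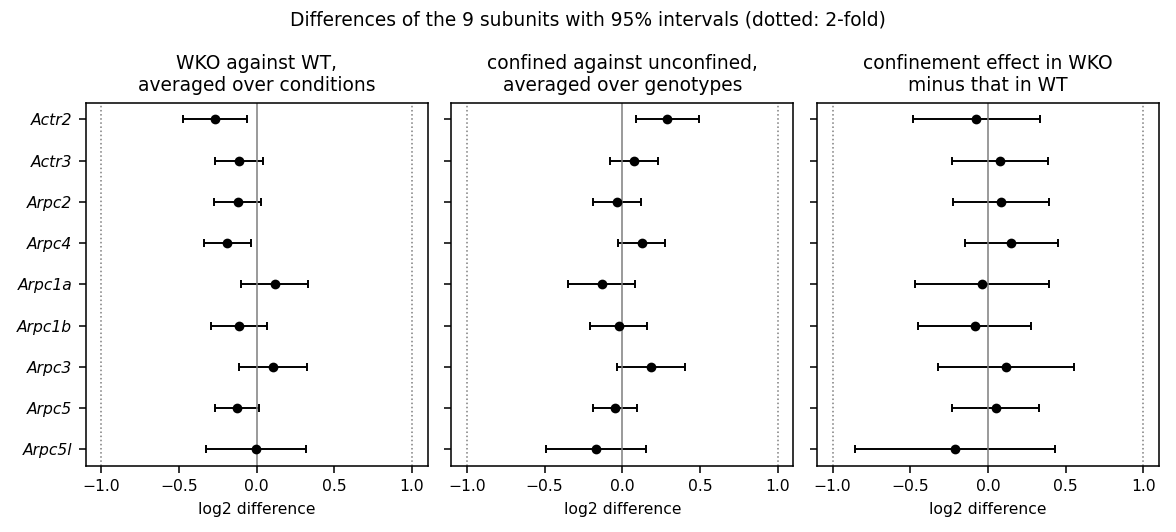
Log2 difference of each subunit with its 95% interval: WKO against WT averaged over conditions (left), confined against unconfined averaged over genotypes (middle) and the interaction, WKO effect of confinement less the WT one (right). Dotted lines mark a 2-fold change, and every interval lies within them; Actr2 lies at -0.27, 0.29 and -0.07.

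Likeness of pattern over the 10 libraries was measured on log2 values centred and scaled to a standard deviation of 1, as the root mean square difference between genes, among 7746 genes with a mean of at least 200. Actr3 and Arpc4 were the most alike pair of subunits, at 0.33. Among 7745 other genes Arpc4 ranked second for Actr3, and Actr3 ranked 5th for Arpc4. Arpc2 and Arpc5 followed at 0.50, with Arpc5 ranked 94th for Arpc2 and Arpc2 ranked 50th for Arpc5. Other subunits had many genes nearer than any subunit. For Actr2 the nearest subunit, Actr3, ranked 276th, and for Arpc3 it ranked 1697th. The 5 genes outside the complex most like the mean of the 9 scaled profiles were Hnrnpa0 (0.33), Rheb (0.34), Polr1d (0.37), Derl1 (0.37) and Upf1 (0.39). All these profiles share the same libraries and scaling, and with 10 libraries the ranks are a description.

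A few genes around the complex passed where no subunit did. The list held 43 genes, of which 40 were tested: 12 activators, 16 partners of WASp and of the WAVE complex, 2 branch stabilisers, 9 inhibitors and debranching proteins, 3 capping protein genes and Actr3b. Wasf1 had at most 5.36 normalized read counts, and Wasf3 and Wipf3 were listed at 0. In confined against unconfined cells 1 gene rose and 1 fell in WT, 1 rose and 0 fell in WKO, and 2 rose and 1 fell in the average. In WKO against WT, 0 rose and 1 fell in unconfined cells, 2 rose and 2 fell in confined cells, and 2 rose and 3 fell in the average, Was being among those that fell each time. Over all genes the shares that passed for confinement were 1.16% in WT, 1.72% in WKO and 6.21% in the average. For WKO against WT they were 0.145% in unconfined cells, 2.59% in confined cells and 5.57% in the average. The counts in the list are small and were not tested against these shares. The branch stabilisers, the capping protein genes and Actr3b held no passing gene in any comparison. The median of the 40 was between -0.04 and 0.04 in each comparison.

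Jmy, an activator that nucleates actin both with and without Arp2/3, had the clearest change with confinement. It was at 349 and 310 normalized read counts in unconfined WT and 376 and 337 in unconfined WKO libraries. It was 781, 851 and 648 in confined WT and 706, 1040 and 893 in confined WKO libraries. Every confined library was above every unconfined one in both genotypes. Over all genes, confined and unconfined libraries did not overlap for 35.9% in WT and 28.3% in WKO. The share that did so in both genotypes was not computed. The log2 fold change was 1.20 in WT (SE 0.179, limma adjusted p = 0.00726), 1.29 in WKO (SE 0.179, limma adjusted p = 0.00403) and 1.24 on average (SE 0.127, limma adjusted p = 0.000161), and the average passed under all 19 alternatives. The call in WT was lost without WT unconfined replicate 1 or 3, and that in WKO without WKO unconfined replicate 3 or with only the WKO groups fitted, with limma adjusted p-values up to 0.096. The interaction for Jmy was 0.09 (limma adjusted p = 0.999).

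Cyfip2, a Rac-binding subunit of the WAVE complex, was lower in WKO. It was at 2749 and 2417 normalized read counts in unconfined WT, 2153 and 2197 in unconfined WKO, 3312, 3099 and 3198 in confined WT, and 2094, 2435 and 2224 in confined WKO libraries. The genotypes did not overlap in either condition, which held for 44.9% of all genes in unconfined and 21.1% in confined cells. The share for both conditions together was not computed. It fell by 0.51 on the log2 scale in confined cells (SE 0.097, limma adjusted p = 0.0185), fell by 0.38 on average (limma adjusted p = 0.016), and had a value of -0.25 in unconfined cells (limma adjusted p = 0.557). With the stromal markers as a covariate these became -0.41 in confined cells (limma adjusted p = 0.655) and -0.30 on average (limma adjusted p = 0.413). The call in confined cells was also lost with only the confined groups fitted and without any one of the WT confined replicates, and that of the average without WT unconfined replicate 1 or WKO unconfined replicate 1 or 3.

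Gmfg, which binds Arp2/3 and promotes debranching, was higher in WKO. Libraries held 232 and 266 normalized read counts in unconfined WT, 391 and 493 in unconfined WKO, 196, 270 and 336 in confined WT, and 445, 444 and 555 in confined WKO libraries. All 5 WKO libraries were above all 5 WT libraries. Within a condition, the genotypes did not overlap for 44.9% of all genes in unconfined and 21.1% in confined cells. The share over both conditions together was not computed. The log2 fold change was 0.87 in confined cells (SE 0.198, limma adjusted p = 0.0411), 0.82 in unconfined cells (limma adjusted p = 0.261) and 0.85 on average (limma adjusted p = 0.00986). With the stromal covariate the value was 0.56 in confined cells (limma adjusted p = 0.893) and 0.62 on average (limma adjusted p = 0.364). The call of the average was also lost without WT unconfined replicate 1 or WKO unconfined replicate 3, and that in confined cells with only the confined groups fitted and without any library except WT confined replicate 6 and WKO confined replicate 1.

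Coro2a, a member of the coronin family, fell by 0.33 on the log2 scale in WKO on average (SE 0.074, limma adjusted p = 0.0261). Its normalized read count was 2166 and 1963 in unconfined WT and 1584 and 1510 in unconfined WKO libraries. It was 2050, 2028 and 2209 in confined WT and 1696, 1780 and 1843 in confined WKO libraries, so that WKO lay below WT in all libraries. Within a condition, the genotypes did not overlap for 44.9% of all genes in unconfined and 21.1% in confined cells. The call of the Coro2a average was lost with the stromal covariate and when leaving out WT unconfined replicate 1, either WKO unconfined replicate or any WT confined replicate. Abi2, a subunit of the WAVE complex, rose by 0.70 with confinement on average (limma adjusted p = 0.0328). Its normalized read count was 410 to 465 in unconfined WT, 392 to 409 in unconfined WKO, 626 to 747 in confined WT and 446 to 860 in confined WKO libraries, where replicate 1 was the lowest. The call was lost with the stromal covariate and when leaving out any library other than WKO confined replicates 1 and 5.

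Abi3, another subunit of that complex, passed in 4 comparisons, and its count is uncertain. Libraries held 219 and 512 normalized read counts in unconfined WT, 431 and 441 in unconfined WKO, 104, 116 and 143 in confined WT, and 418, 295 and 369 in confined WKO libraries, so that the confined WT libraries were the lowest. The log2 fold change was 1.57 for WKO against WT in confined cells (limma adjusted p = 0.013) and -1.47 for confinement in WT (limma adjusted p = 0.0386). The averages were 0.97 for WKO (limma adjusted p = 0.0224) and -0.88 for confinement (limma adjusted p = 0.0324), and the interaction was 1.19 (limma adjusted p = 0.999). With the stromal covariate none of the 4 passed, and each was also lost without WT confined replicate 2 or 3. Without WT unconfined replicate 3 confinement gave -0.87 in WT and -0.58 on average, and neither passed. Each of the calls other than that of WKO in confined cells was lost as well without WKO unconfined replicate 1 or 3, the WKO average without WT unconfined replicate 1, confinement in WT without WT confined replicate 6 or with only the WT groups fitted, and the confinement average without WKO confined replicate 2. On the opposite strand 70.1% of the exon bases of Abi3 lie in exons of Zfp652 and 41.1% in exons of Phospho1, and the use of strand in the counting is not given in the sources used here.

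**Figure D5:**
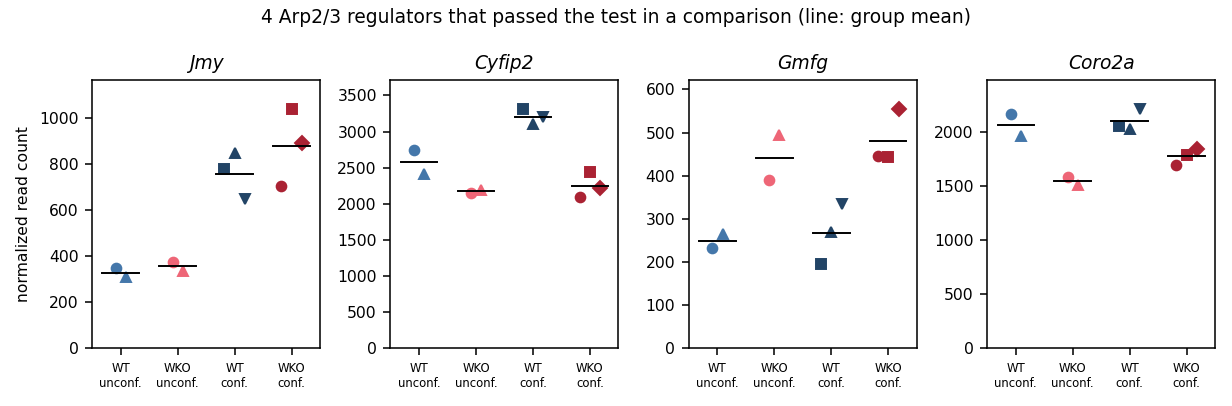
Normalized read count by group of 4 genes around the Arp2/3 complex that passed in at least 1 comparison, with axes that start at 0. Points are libraries with the replicate number given by the same shapes as for the subunits, and lines are group means; Jmy lies at 310 to 376 in unconfined and 648 to 1040 in confined libraries.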

How the data were processed

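Libraries of mRNA were prepared from 5 ng RNA each, per the labels' protocols. The submitters' processing notes name FastQC, Trim Galore, STAR and the build GRCm38 (mm10); the counting tool, annotation, strand setting and versions are not given in the sources used here. The authors deposited a signal per gene and library, a normalized read count. In all 10 libraries 100% of the values were whole multiples of 1 read's worth (tolerance 0.001), and the factors equalled DESeq2's size factors, so whole reads could be recovered. Groups came from the labels and no library was left out. Replicate libraries differed by a chi-square per degree of freedom of 7.56 to 78.3, so none was a duplicate.

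Values were analysed as log2(normalized read count + 1), a scale that understates changes of low genes. Genes with a mean of at least 10 (12455 of 57010) were fitted with limma 3.58.1 in R 4.3.3 with 1 mean per group, 6 residual degrees of freedom and a mean-variance trend. Benjamini-Hochberg adjustment covered all of them in each contrast, with a threshold of 0.05. Alternatives were a pseudocount of 5, a mean of at least 1, TMM and upper-quartile scaling, the replicate number as a block, edgeR 4.0.16 and DESeq2 1.42.0 on whole reads, only the groups compared, array weights, the stromal marker score as a covariate, and each library left out. Only the limma fit was tried on simulated counts, and only for WASp loss in confined cells and confinement in WT. GENCODE M21 (GRCm38) gave positions, lengths and exon overlaps, and matched 52081 identifiers; blastn 2.17.0 found shared sequence. The marker lists also covered B-lineage, T and NK, dendritic and mast cells, of which the highest summed normalized read count in a library was 200 for B-lineage, 18.2 for T and NK, 134 for dendritic and 65.1 for mast cell markers; 1 further marker list is not reported here.

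Named genes were all 9 members, Was, and up to 6 passing genes per contrast of the list around the complex; genes of like pattern followed the rule given with them. The members and lists were chosen with earlier results of these data known. Counting error limits low values, and the floor of 3 reads covers counting error only, since PCR copies were not told apart.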

Additional observations from a re-analysis of the deposited data

How the results depend on the processing

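The count of 0 passing subunits held under all alternatives for 5 of the 7 comparisons. For confinement in WKO it was 1 (Actr2) with array weights and 0 to 1 when a library was left out. For confinement averaged over both genotypes it was 1 (Actr2) with DESeq2 and with array weights, and 0 to 1 when a library was left out, with 1 without WKO confined replicate 1. Directions that turned belonged to values reported between -0.07 (the interaction of Actr2) and 0.11 (Arpc3 for WASp loss on average). The interaction of Actr2 was 0.1121 with array weights, 0.0350 with the stromal covariate and -0.1904 to 0.0538 when a library was left out. Averaged over both genotypes, confinement gave -0.0109 for Actr3 with upper-quartile scaling, 0.0589 for Arpc1b and 0.0271 for Arpc2 with the replicate block, and -0.0735 to 0.0273 for Arpc1b when a library was left out. For confinement in WT, Arpc4 was -0.0239 with upper-quartile scaling, -0.0161 with the replicate block and -0.0275 to 0.1245 when a library was left out. Averaged over both conditions, WASp loss gave -0.0371 for Arpc3 with the stromal covariate and -0.0241 to 0.2393 when a library was left out. For Arpc5l it gave 0.0055 with upper-quartile scaling, 0.0967 with the replicate block, 0.0004 with DESeq2, 0.0127 with array weights, 0.0163 with the stromal covariate and -0.1257 to 0.1214 when a library was left out. The causes were not tested. Deviations of libraries with the same replicate number correlated between -0.110 and 0.0764, and those with different numbers between -0.201 and 0.241. In groups of 2 libraries the deviations mirror each other and few libraries share a number, so this cannot decide whether the numbers pair libraries. With the replicate block 0 subunits passed in each comparison, while 245 genes passed for WASp loss in unconfined cells against 18 without it. The block leaves fewer residual degrees of freedom than the main fit. Replicate numbers 5 and 6 each occur in a single library, so with the block those libraries add nothing to the comparisons. With the replicate block Actr2 was 0.1983 for confinement in WT and 0.1135 in WKO, and the median of the subunits for WASp loss in confined cells was -0.05. It also lost 4 calls around the complex: Cyfip2 in confined cells and the averages of Coro2a for WASp loss and of Abi2 and Abi3 for confinement. Counts of all genes passing depended strongly on the setting. Over the alternatives and the libraries left out they spanned 4 to 245 (18 as reported) for WASp loss in unconfined and 21 to 1948 (322) in confined cells, and 131 to 1804 (694) averaged. For confinement they spanned 22 to 455 (144) in WT, 33 to 1735 (214) in WKO and 287 to 2220 (773) averaged, with 0 for the interaction throughout. Of the genes passing for confinement averaged over both genotypes 66.6% were higher, and with upper-quartile scaling 46.8%. In single genotypes these shares were 77.1% and 63.6% in WT and 86.4% and 75.4% in WKO.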
